A study of Homo sapiens with 24 samples.

Results

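Eph receptors are a large family of receptor tyrosine kinases, and their ligands, the ephrins, sit on the surface of neighbouring cells. A-type ephrins are tethered by a lipid anchor and B-type ephrins span the membrane, so that a contact between cells can signal into the receptor cell and back into the ligand cell. In the intestinal epithelium *EPHB2* and *EPHB3* are known as genes that follow WNT signalling at the crypt base, whereas the ligands *EFNB1* and *EFNB2* are known from the differentiated cells above, and contact between both populations keeps cells in their compartments. The 10 genes described here were chosen by name from 22 members of the family among 58051 gene identifiers: the B-type receptors *EPHB2*, *EPHB3*, *EPHB4* and *EPHB6*, the A-type receptors *EPHA1*, *EPHA2* and *EPHA4*, and the ligands *EFNB1*, *EFNB2* and *EFNA1*.

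RNA was sequenced from 3 human colorectal carcinoma cell lines, HT29, HCT116 and SW480, with an intact *CTNNB1* gene (WT) or after its inactivation (KO). *CTNNB1* encodes β-CATENIN, which carries the WNT signal to DNA through the TCF/LEF proteins. As background, HT29 and SW480 make truncated APC, and HCT116 has a mutated *CTNNB1* allele that yields a stabilised protein, so the WT cells already had an active pathway. In KO cells Cas9 had removed exon 7 from both alleles, which shifts the reading frame. For each line there were 2 WT and 2 KO clones, each grown from a single cell and sampled in the 2 rounds A and B, which gave 4 libraries per line and genotype and 24 in all. The clones were WT 11, WT 40, KO 28 and KO 38 of HT29, WT 4, WT 6, KO 44 and KO 47 of HCT116, and WT 4, WT 5, KO 17 and KO 21 of SW480. A letter after the clone number names the round. Since both libraries of a clone come from the same cells' descendants, a group of 4 libraries holds only 2 independent clones. The p-values over libraries therefore count clones more than once. Where clone means end a call between groups for 1 of the 10 genes, that value stands beside it; the genes of other lists are given by the fit over libraries.

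Gene totals ran from 22297049 to 29068378 reads per library. *CTNNB1* itself had 187 to 1312 normalised counts in KO libraries, against 5883 to 50939 in WT. All 24 libraries carried high summed levels of 10 colon epithelial markers (from 133703 to 759756), although *CDX1* was at 0 in every library of 5 of the 6 groups. The sums of 10 markers of other cell types lay between 34.5 and 1303. Between KO and WT, 2, 3 and 2 of the 8 epithelial markers tested in HT29, HCT116 and SW480 were differentially expressed (DEGs, as defined below), where 2.30%, 5.06% and 17.5% of all genes tested were. Of the other markers 1 of 3 (*LUM*) in HT29 and 0 of 2 in HCT116 were DEGs (limma, with 1 at an unadjusted p under 0.05). *LUM* was at 0 in every HT29 WT library, so it was tested through its KO libraries alone. In SW480 *CD14* and *VWF* were higher in KO. The part of these markers in the results below was not tested. As a pair, libraries 38A and 38B of HT29 KO stood apart: the standard deviation (SD) of their log2 differences was 0.906, against 0.596 for KO 47 of HCT116 and between 0.313 and 0.437 in the other clones. Library 47A of HCT116 KO held 35449 identifiers with a read, where the others held 20256 to 24944. In bulk RNA, fewer cells that express a gene and less RNA per cell cannot be told apart.

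On GRCh37 the B-type receptor genes lie at chr1:23037332-23247993 (*EPHB2*), chr3:184279573-184300196 (*EPHB3*), chr7:100400187-100425145 (*EPHB4*) and chr7:142552823-142568847 (*EPHB6*). The A-type receptor genes lie at chr7:143087382-143105949 (*EPHA1*), chr1:16450832-16482564 (*EPHA2*) and chr2:222282747-222438922 (*EPHA4*). For the ligands the positions are chrX:68048864-68062003 (*EFNB1*), chr13:107142093-107188010 (*EFNB2*) and chr1:155100352-155107375 (*EFNA1*). *EPHA1* overlaps *ZYX* and *EPHA1-AS1*, *EPHA2* overlaps *EPHA2-AS1*, and *EPHB4* overlaps *SLC12A9*, in each case on the opposite strand. The library kit does not mark strand, so reads in these overlaps cannot be assigned to either gene. *EFNB2* overlaps an unnamed long noncoding RNA gene on its own strand. *EPHB2* overlaps *MIR4684* on its own strand, and *MIR4253* and an unnamed long noncoding RNA gene on the opposite strand. *EPHA4* overlaps *TMEM256P2* and an unnamed long noncoding RNA gene, both opposite, and *EPHB4* also overlaps *RN7SL750P* on its own strand.

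TCF/LEF proteins bind DNA words that begin with CTTTG, and windows just before the gene starts were searched for them on both strands. The 7-letter word CTTTGWW, where W is A or T, occurred in 4199 of 35116 RefSeq windows (12%; GRCh38.p14, 250 bases before each start) and in 0 of the 12 windows of the 10 genes. The shorter core CTTTG, which is part of that word, was present in 42.1% of all windows and in 3 of the 12, namely in *EPHA2*, *EFNA1* and 1 of the windows of *EPHA4*. Among 10 windows that the table holds for 7 of 16 WNT target genes, 2 had the 7-letter word (*SP5* and *TCF7*). A match is only a match of letters, and its absence in these windows says nothing about the factor elsewhere. The windows of *EPHB2* (chr1:22710588-22710837, plus strand), *EPHA2* (chr1:16156070-16156319, minus strand) and *EFNB2* (chr13:106535663-106535912, minus strand) are shown because these genes had the clearest KO differences in HT29, HCT116 and SW480, respectively. They run 5′ to 3′ along the gene, and capitals mark the CTTTG core, which in *EPHA2* begins 202 and 186 bases before the start.
EPHB2: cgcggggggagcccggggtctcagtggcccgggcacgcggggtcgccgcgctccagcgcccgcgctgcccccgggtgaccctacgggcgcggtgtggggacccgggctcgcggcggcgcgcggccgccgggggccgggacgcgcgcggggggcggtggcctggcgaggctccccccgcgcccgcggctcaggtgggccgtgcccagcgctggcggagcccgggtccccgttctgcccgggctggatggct
EPHA2: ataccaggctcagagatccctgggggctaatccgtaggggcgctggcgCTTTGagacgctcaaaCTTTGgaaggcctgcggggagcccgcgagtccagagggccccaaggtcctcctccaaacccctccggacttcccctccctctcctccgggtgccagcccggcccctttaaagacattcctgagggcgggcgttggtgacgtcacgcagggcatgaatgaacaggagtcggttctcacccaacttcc
EFNB2: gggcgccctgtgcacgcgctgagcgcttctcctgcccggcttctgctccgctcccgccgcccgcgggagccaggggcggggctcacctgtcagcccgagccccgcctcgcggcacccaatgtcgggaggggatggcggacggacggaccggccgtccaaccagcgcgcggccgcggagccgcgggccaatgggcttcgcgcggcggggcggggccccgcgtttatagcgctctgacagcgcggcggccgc

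The windows of *EPHB2* and *EFNB2* were rich in G and C, at 84.8% and 78.4%, and that of *EPHA2* held 63.2%. Over all windows the median was 58%, and the 12 windows of the 10 genes spanned 43.2% to 84.8%.

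Without any knock-out, the lines differed in which receptors and ligands they expressed. Levels between genes are compared here as the mean normalised count per kilobase of exon in the 4 WT libraries of a line. In HT29 the most abundant RNAs were *EFNB1* at 2217 ± 171 (SD, n = 4) and *EPHA2*, a receptor common in epithelia and carcinomas, at 1943 ± 267. They were followed by *EPHB4*, the receptor known for its pairing with *EFNB2* in blood vessels, at 905 ± 85.5, then *EFNB2* at 690.3 ± 221 and *EPHB6*, whose kinase domain is inactive, at 508 ± 312. Below these came *EPHA1* (240.0 ± 49.6), *EFNA1* (107 ± 22.8), *EPHB3* (35.9 ± 28.6) and *EPHB2* (4.33 ± 0.565). *EPHA4*, a receptor that binds ephrins of both types, had 0 or 1 read in each HT29 WT library, at or under the floor of 3 reads. The library ranges of neighbours in this order overlapped from *EFNB1* to *EPHA2* and from *EPHB4* through *EFNB2* and *EPHB6* to *EPHA1*.

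In HCT116 WT cells the order opened with *EPHA2* (898 ± 173 per kilobase), *EFNB2* (444 ± 51.6) and *EPHB4* (397 ± 24.5). *EFNB1*, the leading ligand of HT29 and SW480, reached 206 ± 8.74 there. *EFNA1* (146 ± 10.7), *EPHA1* (129 ± 23.0) and *EPHB2* (50 ± 10.9) were in the middle, and *EPHB3* (30.4 ± 4.00), *EPHB6* (30.4 ± 8.84) and *EPHA4* (17.1 ± 4.01) were at the end. Ranges of neighbours overlapped between *EFNB2* and *EPHB4*, between *EFNA1* and *EPHA1*, and along *EPHB3*, *EPHB6* and *EPHA4*. SW480 WT cells again had *EFNB1* (2406 ± 294) and *EPHA2* (1429 ± 125) on top, with *EPHB4* at 427 ± 38.7. *EPHA4* came next in SW480 at 218 ± 26.5, ahead of *EPHB6* (162 ± 15.6), *EPHB3* (115 ± 16.1), *EFNA1* (114 ± 14.6) and *EPHB2* (84.8 ± 6.96). The lowest were *EFNB2* (13.1 ± 3.73) and *EPHA1* (7.37 ± 5.01). Only *EPHB3* and *EFNA1*, and *EFNB2* and *EPHA1*, were neighbours with overlapping ranges in SW480.

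**Figure D1:**
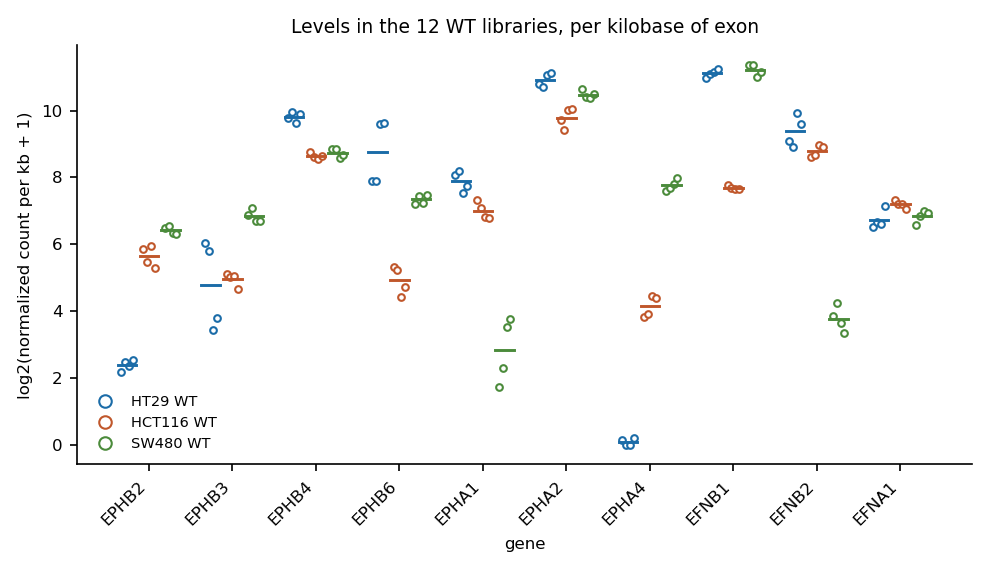
Levels of the 10 genes in the 12 WT libraries, as log2 of the normalised count per kilobase of exon plus 1 (vertical axis) for each gene (horizontal axis), with points for libraries coloured by cell line. *EPHA2* and *EPHB4* lie high in all 3 lines, *EPHA4* runs from the bottom in HT29 to 218 per kilobase in SW480, and *EFNB2* and *EPHA1* drop in SW480.

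Tested between the WT groups with limma, 6 of the 10 genes differed between HT29 and HCT116 by an adjusted p under 0.05 and more than 1 on the log2 scale, where 37.5% of all 17205 genes tested did. Between HT29 and SW480 it was 7 of 10 (all genes 40.1%), and between HCT116 and SW480 it was 6 of 10 (all genes 40.2%). A gene past both limits is called a DEG below, and "rose" or "fell" needs the adjusted p alone. These 3 comparisons share libraries pairwise. *EPHB2* was lower in HT29 than in HCT116 by a log2 difference of -3.49 (SE 0.16, adjusted p = 4.59e-10) and lower than in SW480 by -4.27 (SE 0.16, adjusted p = 4.76e-11). *EPHB3* was lower in HT29 and HCT116 than in SW480, by -2.11 (adjusted p = 0.00239) and -1.91 (adjusted p = 0.00466, and 0.0659 with clone means). The HT29 value for *EPHB3* rested on the clone, at -3.31 without clone WT 11 of HT29 and -0.92 without WT 40. *EPHB6* was highest in HT29, by 3.86 over HCT116 (adjusted p = 1.98e-06) and 1.41 over SW480 (adjusted p = 0.00617, and 0.0753 with clone means). The difference of *EPHB6* from SW480 was 2.27 without clone WT 11 of HT29 and 0.56 without WT 40. *EPHB4* was also highest in HT29, by 1.19 over HCT116 and 1.08 over SW480 (adjusted p = 1.28e-07 and 2.73e-07), and differed by -0.10 between HCT116 and SW480 (adjusted p = 0.351).

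The ligands split the lines differently. *EFNB1* was lower in HCT116, with a log2 difference of 3.43 for HT29 minus HCT116 (SE 0.10, adjusted p = 3.81e-12) and of -3.54 for HCT116 minus SW480 (SE 0.10, adjusted p = 3.43e-12). HT29 and SW480 differed by -0.11 for this ligand (95% interval -0.33 to 0.10, adjusted p = 0.325). *EFNB2* was lower in SW480, by 5.69 against HT29 (SE 0.23, adjusted p = 7.13e-11) and by 5.10 against HCT116 (SE 0.23, adjusted p = 3e-10). *EFNA1*, the usual ligand of *EPHA2*, moved little across the lines: its differences were -0.46 for HT29 minus HCT116 (adjusted p = 0.0204, and 0.124 with clone means), -0.10 for HT29 minus SW480 (adjusted p = 0.590) and 0.36 for HCT116 minus SW480 (adjusted p = 0.0593). Among the A-type receptors, *EPHA1* was lower in SW480 by 5.25 against HT29 and 4.36 against HCT116 (adjusted p = 1.12e-07 and 7.55e-07). *EPHA4* was higher in SW480 than in HCT116, with a log2 difference of -3.69 for HCT116 minus SW480 (SE 0.29, adjusted p = 7.75e-08).

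**Figure D2:**
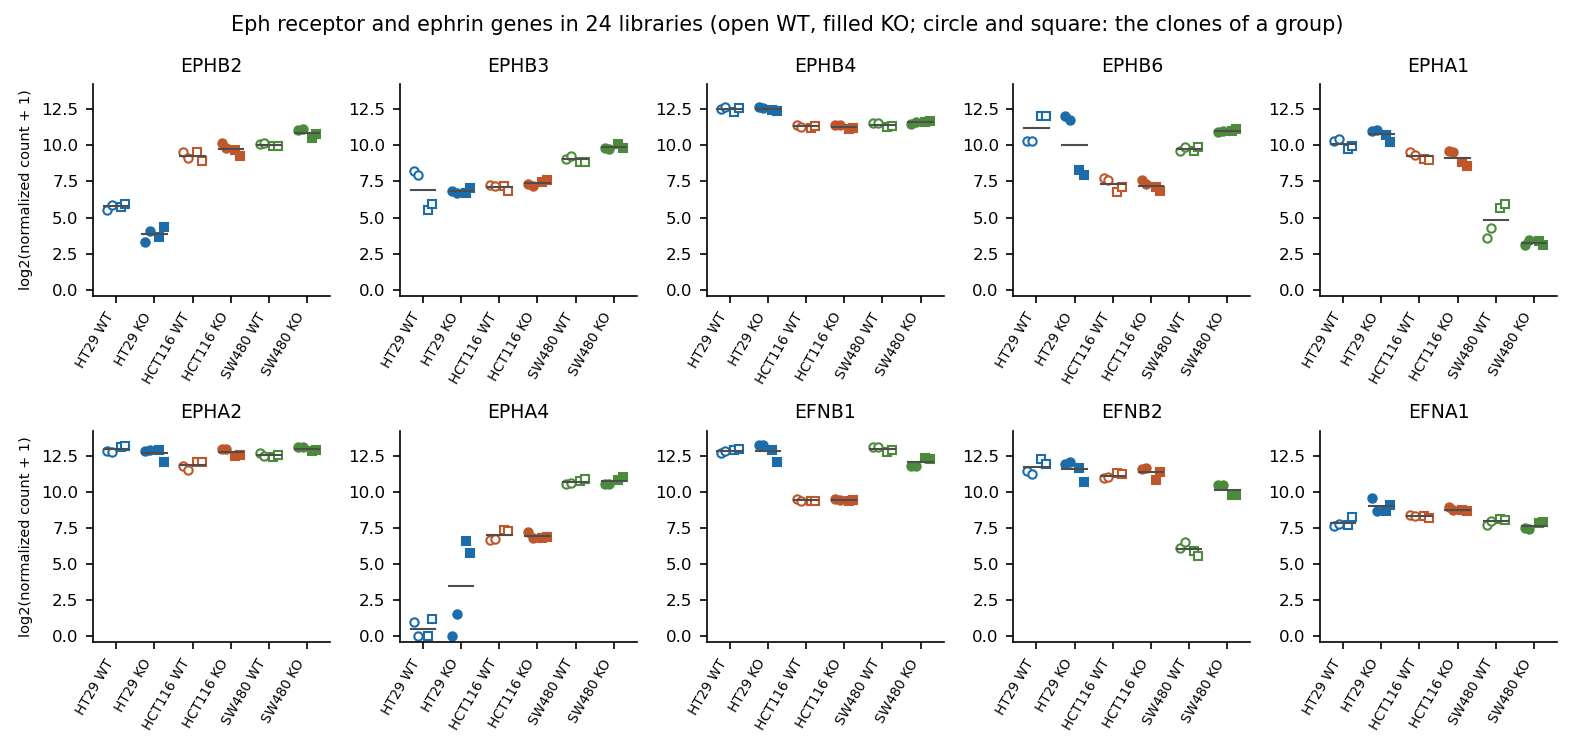
Normalised counts of each gene in the 24 libraries, on a log2(count + 1) scale (vertical axis), by cell line, genotype and clone (horizontal axis); each point is a library. *EPHB2* in HT29 and *EFNB2* in SW480 show WT and KO libraries fully apart, and *EPHB6* in HT29 shows clones apart within each genotype.

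In HT29, knock-out of *CTNNB1* was accompanied by a DEG in 1 of the 9 genes that could be tested, *EPHB2*, which was lower (all 14921 genes tested: 2.30% DEGs, 2.08% rose and 0.476% fell). *EPHB2* had 45.1 and 57.8 normalised counts in WT 11, 52.4 and 61.4 in WT 40, 9.05 and 15.7 in KO 28, and 11.4 and 19.4 in KO 38. Every KO library was below every WT library, and the KO mean of 13.9 ± 4.61 was 25.6% of the WT mean of 54.2 ± 7.07 (SD, n = 4 each). The log2 difference was -1.93 (SE 0.32, 95% interval -2.65 to -1.22, adjusted p = 0.0174). This call was close to the limit: with clone means the adjusted p was 0.602 at a difference of -1.90, and it was 0.0764 and 0.127 without clone WT 11 or WT 40. It was also above 0.05 (from 0.0519 to 0.0633) when any of the libraries 28A, 38A, 11A, 11B, 40A and 40B was left out. Without 38B, from the pair of libraries that stood apart, it was 0.0111 at -2.10. In that line no gene of 14921 passed with clone means (858 had an unadjusted p under 0.05), so the same applies to every HT29 call here.

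*EPHB3*, the receptor nearest to *EPHB2* in known function, did not separate by genotype in HT29. Its counts were 297 and 250.4 in WT 11, 44.5 and 58.9 in WT 40, 115 and 101 in KO 28, and 104 and 134 in KO 38. All KO libraries lay between the WT clones, and the log2 difference was -0.07 (SE 0.60, adjusted p = 0.966). *EPHB4*, the most abundant B-type receptor of the line, had 5119.5 to 6402 counts in WT against 5397 to 6529.8 in KO libraries, a difference of 0.03 (95% interval -0.27 to 0.34, adjusted p = 0.928).

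*EPHB6* differed among HT29 clones more than between genotypes. It had 1268 and 1256 counts in WT 11 and 4086 and 4197 in WT 40, and among KO clones 4123 and 3500.0 in KO 28 but 306 and 249 in KO 38. The KO-WT difference of -1.16 had an SE of 0.99 and an adjusted p of 0.580, and without clone KO 28 it was -3.04 and a DEG. Tested between clones of a genotype, where the error comes only from the repeat of each clone, WT 11 was lower than WT 40 by a log2 difference of -1.71 (SE 0.19, adjusted p = 0.00115), and KO 28 was higher than KO 38 by 3.78 (SE 0.19, adjusted p = 2.72e-05). For *EPHB3* WT 11 exceeded WT 40 by 2.39 (SE 0.27, adjusted p = 0.00137). Those were the 2 DEGs of the 9 genes between the WT clones and, with *EPHB6* alone, the 1 DEG between the KO clones, where 7.58% and 12.5% of all genes were DEGs.

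The A-type receptors and the ligands of HT29 overlapped between genotypes, with 1 exception. *EFNA1* had 198 and 218 counts in WT 11, 209 and 306 in WT 40, 763 and 406 in KO 28, and 406 and 534 in KO 38. All KO libraries were above all WT libraries, at a log2 difference of 1.15 (SE 0.26, 95% interval 0.57 to 1.73), yet the adjusted p was 0.0551 in limma, 0.0638 in edgeR and 0.00115 in DESeq2. *EPHA1* had 865 to 1371 counts in WT against 1180 to 2157 in KO (difference 0.63, adjusted p = 0.224). *EPHA2* ranged from 6848 to 9161 in WT, and in KO from 7172 to 7606 in 3 libraries with 4188 in 38B (difference -0.31, adjusted p = 0.498). *EFNB1* and *EFNB2* were likewise lowest in 38B, at 4172 and 1659, where 38A had 7504 and 3256, and their differences were 0.01 and -0.11 (adjusted p = 0.992 and 0.888).

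*EPHA4* was too low in HT29 to be tested. All WT libraries and both of KO 28 lay between 0 and 1.96 counts, and KO 38 had 97.7 and 54.5. Only 1 clone of the line thus had *EPHA4* reads above the floor, and it was a KO clone whose sister KO clone was at the floor.

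**Figure D3:**
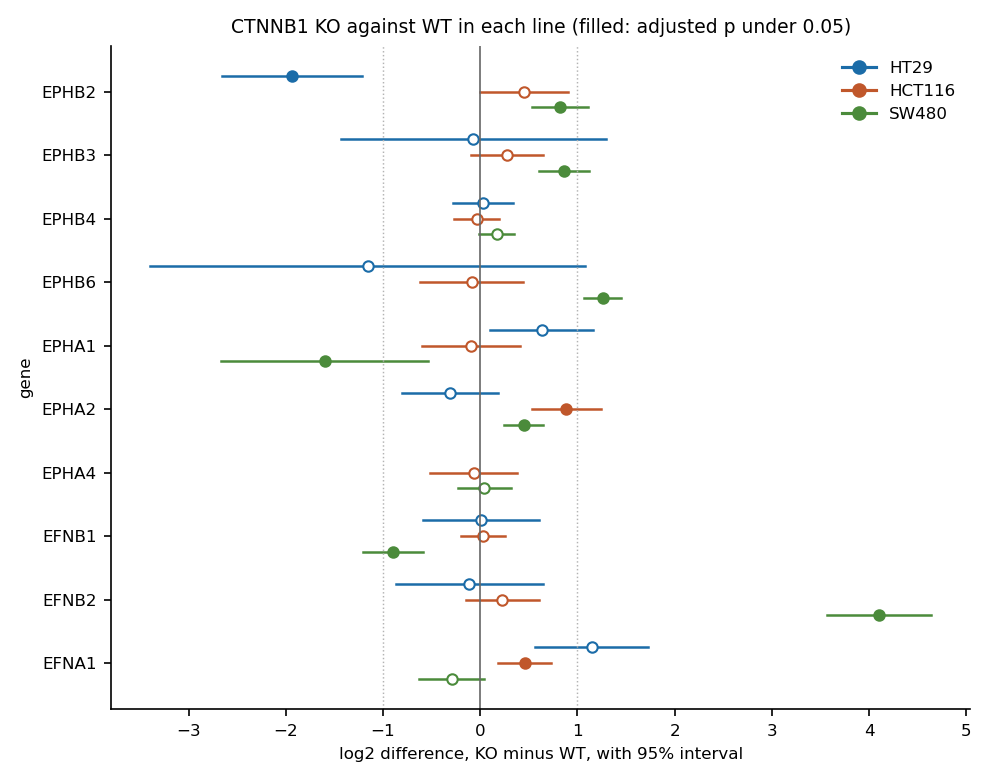
KO-WT log2 difference (horizontal axis) with its 95% interval for each gene (vertical axis) in HT29, HCT116 and SW480; filled points have an adjusted p under 0.05. The farthest points are *EFNB2* in SW480 at 4.10 and *EPHB2* in HT29 at -1.93, and the interval of *EPHB6* in HT29 spans -3.39 to 1.08.

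In HCT116, 0 of the 10 genes were DEGs in limma (all 15404 genes tested: 5.06%), with 3 at an unadjusted p under 0.05, and edgeR and DESeq2 also gave 0. Without the limit on size, 2 genes rose, *EPHA2* and *EFNA1*, and none fell (all genes 8.05% and 5.93%). *EPHA2* had 3446 and 2834 counts in WT 4, 4240.3 and 4359 in WT 6, 7983 and 7813 in KO 44, and 5587 and 6055 in KO 47. The KO libraries were all above the WT libraries, with a mean of 6859 ± 1216 against 3719.8 ± 716 (SD, n = 4), or 184% of WT. The log2 difference was 0.89 (SE 0.16, 95% interval 0.53 to 1.24, adjusted p = 0.00442), and it was 0.98 without the library 47A (adjusted p = 0.00485). With clone means the adjusted p was 0.0785, and without clone KO 47 or WT 6 the difference passed 1, at 1.11 and 1.12.

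*EFNA1*, the ligand of *EPHA2*, had 342, 318, 316 and 286 counts in the WT libraries and 487, 428, 419 and 403 in the KO libraries. The genotypes did not overlap, and the difference was 0.46 (SE 0.12, adjusted p = 0.0322). It was past the limit in 10 of the 22 alternatives only, with an adjusted p of 0.0556 without 47A and 0.298 with clone means. Receptor and ligand RNA of this pair thus both rose in HCT116 in the fit over libraries, and neither passed with clone means.

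*EPHB2* in HCT116 pointed upwards, opposite to HT29, but did not pass. It had 724 and 547 counts in WT 4, 757 and 476 in WT 6, 1127 and 902 in KO 44, and 822 and 598 in KO 47, so that in each clone round A was above round B. WT and KO overlapped through 47B, and the difference of 0.45 (SE 0.20) had an adjusted p of 0.166, which became 0.0720 with the round as a block and 0.0343 without clone KO 47. *EPHB3* had 111 to 152 counts in WT against 145 to 191 in KO (difference 0.28, adjusted p = 0.308). The other 6 genes had differences between -0.09 (*EPHA1* and *EPHB6*) and 0.23 (*EFNB2*), with adjusted p-values from 0.403 to 0.876. Their 95% intervals over libraries stayed within -0.61 and 0.60 and did not reach 1 on the log2 scale. These intervals count clones more than once and may be too narrow, so they do not exclude such a change. Between clones of HCT116 none of the 10 genes was a DEG in limma, neither in WT (all genes 1.44%) nor in KO (3.28%), with 4 and 5 genes at an unadjusted p under 0.05. *EPHA1* was higher in KO 44 than in KO 47 by 0.86 (adjusted p = 0.00652).

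SW480 showed the most differences, for these genes as for all genes. Of the 10 genes 3 were DEGs (all 16325 genes tested: 17.5%), *EFNB2* and *EPHB6* higher and *EPHA1* lower in KO. By the adjusted p alone 5 rose and 2 fell, each with no overlap of WT and KO libraries, where 26.1% of all genes rose and 22.1% fell. *EFNB2* had 67.7 and 90.1 counts in WT 4, 57.9 and 46.0 in WT 5, 1436 and 1418 in KO 17, and 860.0 and 855 in KO 21. The lowest KO library was above the highest WT library by far, and the means of 1143 ± 329 and 65.4 ± 18.7 (SD, n = 4) stood 17.5-fold apart. The log2 difference was 4.10 (SE 0.24, 95% interval 3.56 to 4.64, adjusted p = 5.07e-07), and with clone means its adjusted p was 0.00119.

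*EFNB1*, the other transmembrane ligand of the set, moved the opposite way in SW480. It had 8747 and 8761 counts in WT 4, 6809.9 and 7473 in WT 5, 3598 and 3559 in KO 17, and 5049 and 5031 in KO 21, and its KO mean was 54.2% of WT (difference -0.90, SE 0.14, adjusted p = 0.000455). *EFNB1* nonetheless remained the more abundant ligand, at 1305 ± 255 per kilobase in KO against 228 ± 65.7 for *EFNB2*. The share of *EFNB2* in the summed level per kilobase of *EFNB1*, *EFNB2* and *EFNA1* was 0.516% in WT and 14% in KO. The KO clone with the higher *EFNB2*, KO 17, was also the clone with the lower *EFNB1*, and both clone differences passed the adjusted p (0.73 for *EFNB2*, adjusted p = 0.00206; -0.49 for *EFNB1*, adjusted p = 6.96e-05). *EFNA1* had 203 to 275 counts in WT and 169.7 to 234 in KO (difference -0.29, adjusted p = 0.129).

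Of the B-type receptors 3 of 4 rose in SW480. *EPHB6* had 789, 924, 791 and 942 counts in WT and 1909, 1989, 2068 and 2275 in KO libraries, and its KO mean was 239% of WT (difference 1.26, SE 0.09, adjusted p = 1.28e-06). Unlike in HT29, the clones of a genotype lay close together. *EPHB2* had 1109 and 1159 counts in WT 4, 1002 and 975 in WT 5, 2172 and 2218 in KO 17, and 1480.0 and 1728 in KO 21 (difference 0.82, SE 0.13, adjusted p = 0.000418). *EPHB3* had 534 and 618 counts in WT 4, 462 and 466 in WT 5, 906 and 865 in KO 17, and 1097 and 906 in KO 21 (difference 0.86, SE 0.11, adjusted p = 0.000137). Both genes, known as WNT targets of the crypt base, were thus higher in the KO libraries of this line. *EPHB4* had 2456 to 2964 counts in WT against 2841 to 3290.0 in KO (difference 0.17, 95% interval -0.01 to 0.35, adjusted p = 0.107). The differences of *EFNB2*, *EPHB6*, *EPHB3*, *EPHB2* and *EFNB1* had an adjusted p under 0.05 in all 22 alternatives, at most 0.0278.

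The A-type receptors of SW480 went in 3 directions. *EPHA2* had 6610.1, 5554, 5491 and 6018 counts in WT and 8864, 8737, 7179.7 and 7554 in KO libraries, which did not overlap (difference 0.45, SE 0.09, adjusted p = 0.00225, and 0.0595 with clone means). *EPHA4*, abundant in this line, had 1467 to 1920.2 counts in WT and 1474 to 2074 in KO (difference 0.04, 95% interval -0.23 to 0.32, adjusted p = 0.794). *EPHA1* was low: 11.1 and 18.4 counts in WT 4, 49.2 and 59.7 in WT 5, 7.52 and 10.1 in KO 17, and 9.34 and 7.68 in KO 21. Its difference of -1.60 (SE 0.48, adjusted p = 0.0188) drew mostly on WT 5, since WT 4 was lower than WT 5 by a log2 difference of -1.85 (SE 0.41, adjusted p = 0.00769). The adjusted p was 0.0589 without 5A, 0.0528 without 5B, 0.0615 without KO 17, 0.0785 without KO 21 and 0.119 with clone means, and without either WT clone the gene no longer reached the minimum count for testing. Among the KO libraries only that at 10.1 counts reached this minimum, so *EPHA1* was tested through its WT libraries. Its place among the genes tested was thus not independent of the difference. *EPHA1* was the only DEG of the 10 genes between the WT clones of SW480 (all genes 1.97%), and between the KO clones there was none in limma (all genes 4.61%), with 6 at an unadjusted p under 0.05.

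**Figure D4:**
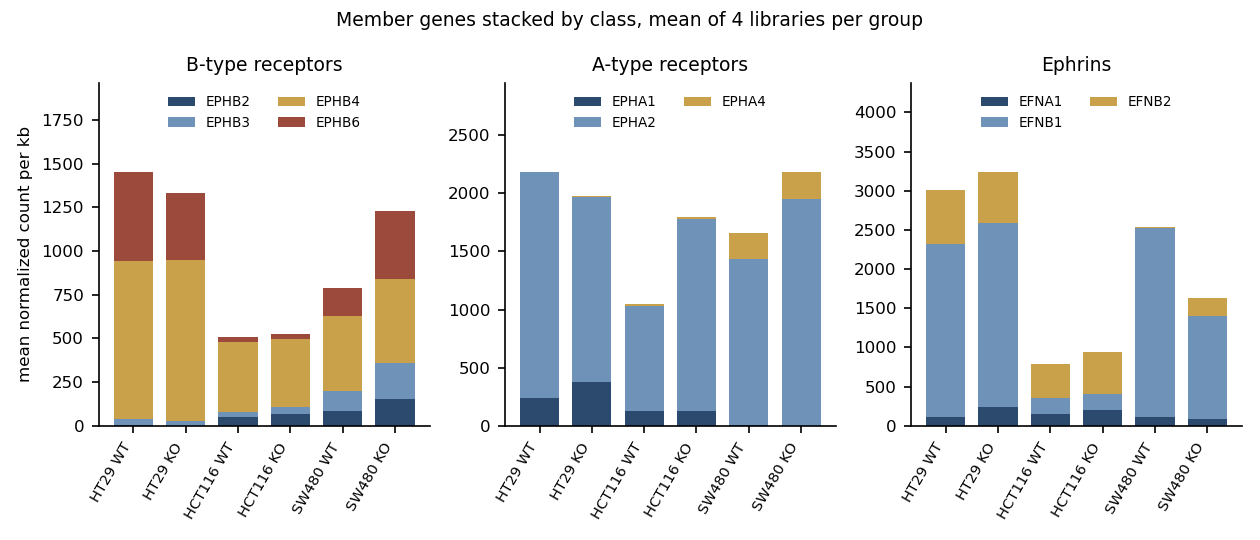
Mean normalised count per kilobase of exon (vertical axis) of the genes stacked within B-type receptors, A-type receptors and ephrins, for WT and KO of each line (horizontal axis, n = 4 libraries each). *EPHA2* forms most of the A-type receptor RNA shown in each group. *EPHB4* is the largest part of the B-type receptor stack in each group, at 39.1% in SW480 KO. The ephrin stack of SW480 falls from 2534 in WT to 1626 in KO while its *EFNB2* part grows from 0.516% to 14%. Other family members are left out of the stacks.

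Summed per kilobase over the 10 genes, the classes were led by the same receptors in all WT groups. Other family members, among them the ligand *EFNA4*, are left out of these sums, so each share is one among the genes named here. *EPHB4* made up 62.3% of the B-type receptor sum in HT29, 78.2% in HCT116 and 54.2% in SW480, and *EPHA2* made up 89.0%, 86.0% and 86.4% of the A-type receptor sum. *EFNB1* made up 73.5% of the ligand sum in HT29 and 95% in SW480, but 25.9% in HCT116, where *EFNB2* held 55.8%. In SW480 the B-type receptor sum was 789 ± 63.8 in WT and 1227 ± 42.2 in KO, and the ligand sum was 2534 ± 284 and 1626 ± 205 (SD, n = 4). Neither pair of ranges overlapped: the B-type sums ran from 712 to 861 and from 1174 to 1277, and the ligand sums from 2200.4 to 2785 and from 1439 to 1806.

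Whether the KO difference itself depended on the line was tested in a fit over all 24 libraries, in which the 3 comparisons again share libraries. The KO difference of 2 genes differed between HT29 and HCT116 (all 18609 genes: 5.39%), of 4 between HT29 and SW480 (12.3%) and of 1 between HCT116 and SW480 (10.0%), by an adjusted p under 0.05 and more than 1 on the log2 scale. For *EPHB2* the difference in HT29 was lower than that in HCT116 by -2.39 (SE 0.31, adjusted p = 2.83e-05) and lower than that in SW480 by -2.76 (SE 0.31, adjusted p = 9.44e-07). HCT116 and SW480 differed by -0.37 (95% interval -1.01 to 0.27, adjusted p = 0.509) for this gene. For *EFNB2* SW480 stood apart from both other lines, by -4.21 (HT29 minus SW480, SE 0.40, adjusted p = 7.09e-08) and -3.87 (HCT116 minus SW480, SE 0.40, adjusted p = 2.75e-07). *EFNA1* had a higher KO difference in HT29 than in SW480 (1.44, SE 0.26, adjusted p = 0.000402), and *EPHA1* did as well (2.23, SE 0.52, adjusted p = 0.00374, 0.163 with clone means, and 1.31 as the difference without clone WT 5 of SW480). The *EPHA2* difference in HT29 was lower than in HCT116 by -1.20 (SE 0.25, adjusted p = 0.00363, and 0.226 with clone means). No such difference passed for *EPHB3*, *EPHB4*, *EPHB6* or *EPHA4* (adjusted p from 0.0857 to 0.972), which does not show that the lines acted alike.

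Over the 24 libraries, after subtracting each line's mean, *EPHB2* and *EPHB3* correlated by Pearson's r = 0.178 with each other. Among 10836 genes with a mean of at least 100, the genes most like *EPHB2* were *ROR1* (r = 0.868), *SLC38A5* (0.866) and *TMEM39B* (0.854). The genes most like *EPHB3* were *WWTR1* (0.898), *PLD1* (0.898) and *HPS1* (0.890). These values describe libraries that share genotype, clone and round, and carry no test.

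Of the 12 other family members, 5 could be tested in HT29, 5 in HCT116 and 6 in SW480, and the rest were too low. *EFNA5*, a lipid-anchored ligand, had 7.34, 1.86, 11.1 and 1.90 counts in HCT116 WT and 61.9, 79.1, 159 and 236 in HCT116 KO (difference 4.45, SE 0.56, adjusted p = 0.000469). In SW480 it had 8.09 and 7.35 counts in WT 4, 97.5 and 135 in WT 5, 739 and 674 in KO 17, and 768 and 702 in KO 21 (difference 4.50, SE 0.92, adjusted p = 0.00380). Both lines thus had *EFNA5* higher in every KO library than in any WT library, whereas HT29 held 389.8 to 1082 counts without a split by genotype. *EFNA5* was the only DEG of these 5 genes in HCT116 (all genes 5.06%), and HT29 had 0 in limma (all genes 2.30%), with 1 at an unadjusted p under 0.05. Among the HCT116 WT libraries only that at 11.1 counts reached the minimum for testing, so *EFNA5* was tested there through its KO libraries. Its place among the genes tested in HCT116 was thus not independent of the difference.

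In SW480 5 of the 6 other members tested were DEGs (all genes 17.5%). Beside *EFNA5*, *EPHB1*, a B-type receptor, was higher, with 1.01, 6.43, 0.965 and 0.979 counts in WT and 32.9, 32.1, 10.3 and 10.6 in KO libraries (difference 2.82, adjusted p = 0.00224). *EFNA4* was lower, with 341 to 366 counts in WT and 115 to 161 in KO (difference -1.34, adjusted p = 1.52e-05). *EFNA3* (-1.07, adjusted p = 0.0416, at 22.2 counts or fewer) and *EPHA10* (-1.13, adjusted p = 0.00284) were also lower. *EPHB1* reached the minimum count for testing through its KO libraries alone, and *EFNA3* through its WT libraries alone. Their place among the genes tested was thus not independent of the difference. *EFNA3* and *EFNA4* lie next to each other on chromosome 1 and share a readthrough transcript, so reads may be split between them. Reads of *EPHA3*, *EPHA5*, *EPHA6* and *EPHA7* above the floor appeared in the library 47A of HCT116 KO alone.

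**Figure D5:**
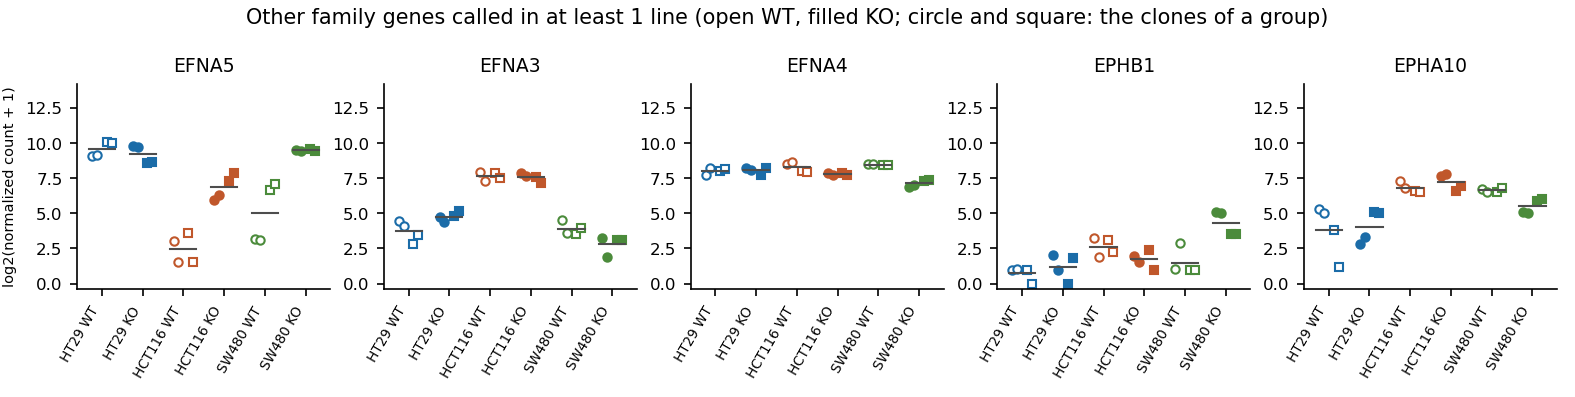
Normalised counts of the other family members that were DEGs between KO and WT in at least 1 line, on a log2(count + 1) scale (vertical axis). Points are libraries, by line, genotype and clone (horizontal axis). Members tested without being a DEG are not drawn. *EFNA5* lies between 1.86 and 11.1 in HCT116 WT and between 61.9 and 236 in HCT116 KO, and stays between 389.8 and 1082 in HT29.

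A list of 42 genes whose products act with Eph receptors and ephrins (adaptors, guanine exchange factors, kinases, phosphatases and proteases) was tested in the same fits. In HT29 0 of the 37 tested were DEGs or passed the adjusted p in limma, with 7 at an unadjusted p under 0.05 (all genes 2.30% DEGs). In HCT116 1 of 36 was a DEG, *NGEF*, which encodes the exchange factor ephexin (difference 1.25, adjusted p = 0.00538), and 5 rose and 5 fell (all genes 5.06% DEGs, 8.05% rose and 5.93% fell). In SW480 8 of 39 were DEGs, and 19 rose and 7 fell (all genes 17.5% DEGs, 26.1% rose and 22.1% fell). *NGEF* rose there too, by 1.83, as did *GRB7* (2.32) and *GRB10* (1.45), which encode related adaptors, *ARHGEF16* (1.38), an exchange factor, and *GRIP1* (4.28), a PDZ protein. *GRIP1* had 1.84 to 3.91 counts in SW480 WT and 52.3 to 79.7 in KO, so it was tested through its KO libraries alone. *SLA* (-1.91), an adaptor, and *CHN1* (-1.20) and *CHN2* (-1.10), which encode the chimaerins that act on RAC, fell. For HT29, HCT116 and SW480 the list's median difference was -0.19, 0.05 and 0.20, where the 10 family genes had -0.07, 0.13 and 0.31 over those tested and all genes 0.03, -0.01 and -0.0042.

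WNT target genes gave the background against which the *EPHB2* and *EPHB3* values stand. Of a list of 16, 4 of 10 tested were DEGs in HT29 (all genes 2.30%), all lower. In HCT116 5 of 12 were DEGs (all genes 5.06%), and 6 fell and 2 rose (5.93% and 8.05%). In SW480 12 of 15 were DEGs (all genes 17.5%), and 13 fell and 2 rose (22.1% and 26.1%). *AXIN2*, the customary readout of the pathway, fell in HT29 (log2 difference -3.70, adjusted p = 0.0321), in HCT116 (-5.25) and in SW480 (-4.74). Among the HT29 libraries *AXIN2* had 590.0 to 779 counts in WT, 15.1 and 22.5 in KO 28, and 158 and 119 in KO 38, so both KO clones were below WT but unequally, whereas their *EPHB2* counts overlapped. *LGR5*, a receptor of crypt stem cells, fell by 4.36 in HT29 (adjusted p = 0.0422) and was too low to be tested in the other lines. The genes of the list that rose were *CD44* and *SOX9*, in HCT116 and SW480. *EPHB2* thus moved as *AXIN2* did in HT29 and opposite to it in SW480.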

How the data were processed

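Libraries were made from total RNA with an Illumina TruSeq v2 kit, which does not mark strand. The paper states that RNA was captured with oligo-dT, so the libraries hold polyadenylated RNA. According to the submitters' processing notes, the authors used bcl2fastq, STAR 2.7.5b, featureCounts 2.0.1 and DESeq2 2.11.40.6 with GRCh37; the annotation version and strand setting are not given in the sources used here. The deposited signal per gene and library is a read count divided by a size factor of the authors, called the normalised count here. Whole reads were recovered from its smallest step in all 24 libraries (100% of values within 0.001 read). The authors' 3 tables of fold changes and p-values were not used.

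Genes with at least 10 normalised counts in at least 4 libraries of a fit were tested with limma 3.58.1 on log2(normalised count + 1), with trend and robust variance moderation and Benjamini-Hochberg adjustment over all genes tested. Fold differences on this scale understate changes of low genes. KO was tested against WT in 8 libraries per line, WT lines in 12, differences of KO effects in 24, and clones within a genotype against the spread between rounds. A DEG had an adjusted p under 0.05 and an absolute log2 difference over 1. Alternatives used edgeR 4.0.16 and DESeq2 1.42.0 on the recovered reads, TMM scaling, pseudocounts of 0.1 and 5, other filters, the round as a block, clone means or a random clone effect, and left out each library or clone. The scripts were tested on simulated data. R 4.3.3 and Python 3.11.15 (pandas 2.3.3, numpy 2.4.6, matplotlib 3.10.9) were used.

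The log2 differences of round A minus round B were correlated between clones over all genes tested. The correlation was over 0.1 in 6 of 6 clone pairs of HCT116 (0.182 to 0.374). It was over 0.1 in 2 of 6 pairs in HT29 (-0.309 to 0.424) and 1 of 6 in SW480 (-0.041 to 0.127). The round thus paired the libraries throughout HCT116, and only in some clone pairs of the other lines.

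Named were the 10 genes, all DEGs among the 12 other family members, at most 8 DEGs of the effector list, and the 3 genes most like *EPHB2* and *EPHB3*. Members and lists were chosen with earlier results of these data known. Of 101 list genes 100 matched (not *PECAM1*); the result of 1 marker gene is not reported here. Gene positions and exon lengths came from GENCODE 44 lifted to GRCh37, and promoter windows from RefSeq (GRCh38.p14).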

Additional observations from a re-analysis of the deposited data

Results flagged for a closer look

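In 3 of the 60 groups of 4 libraries tested, the highest or lowest library lay apart by more than Dixon's 95% critical value for 4 values, where chance alone gives about 1 in 20 groups. *EFNB1* in HCT116 WT was 722.0 in library 4A and 661.6 to 670.1 in the others. *EPHA2* in HT29 KO was 4188 in library 38B and 7172 to 7606 in the others. *EPHA4* in HCT116 KO was 146.4 in library 44A and 112.4 to 114.2 in the others.

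A test of the difference between lines picked out the KO-WT log2 difference of 6 genes (limma, adjusted p under 0.05, 24 libraries, comparisons sharing libraries). For HT29 minus HCT116 the values were -2.39 for *EPHB2* and -1.20 for *EPHA2*. For HT29 minus SW480 they were -2.76 for *EPHB2*, -4.21 for *EFNB2*, 2.23 for *EPHA1*, 1.44 for *EFNA1*, 0.90 for *EFNB1* (adjusted p = 0.0210) and -0.76 for *EPHA2* (adjusted p = 0.0379). For HCT116 minus SW480 they were -3.87 for *EFNB2* and 0.93 for *EFNB1* (adjusted p = 0.0210). With clone means as replicates the *EFNB1* values had adjusted p = 0.217 and 0.254, those of *EPHA2* had 0.226 for HT29 minus HCT116 and 0.296 for HT29 minus SW480, and that of *EPHA1* had 0.163. Without clone KO 28 of HT29 the *EFNB1* value for HT29 minus SW480 was 0.51 (adjusted p = 0.113), and without clone WT 5 of SW480 that of *EPHA1* was 1.31 (adjusted p = 0.0345).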

How the results depend on the processing

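The round as a block left every count of genes as it was (1 DEG in HT29, 0 in HCT116, 3 in SW480, where 7 passed the adjusted p). In HT29, DEGs and genes past the adjusted p were 2 with DESeq2 (*EFNA1* and *EPHB2*) and 0 with clone means, with a random clone effect, and with at least 10 counts in every library, where *EPHB2* was not tested. In HCT116, 1 gene (*EPHA2*) passed with no filter or a random clone effect and 0 with clone means. KO effects differed between HCT116 and SW480 for 2 genes with edgeR or DESeq2 (*EFNB2* and *EPHA1*), between HT29 and HCT116 for 1 with the stricter filter (*EPHA2*) or clone means (*EPHB2*), and between HT29 and SW480 for 2 with the stricter filter. Between the HT29 KO clones 2 genes were DEGs with no filter (*EPHA4* and *EPHB6*), and between the SW480 WT clones 0 with the stricter filter. Signs of small differences turned in HT29 for *EPHB4* (-0.00084 with edgeR, -0.00051 with TMM scaling) and *EFNB1* (-0.024 with TMM scaling), in WT HT29 minus HCT116 for *EPHB3* (0.29 with edgeR, 0.24 with DESeq2, -0.21 in limma), and in the KO effect of HT29 minus HCT116 for *EFNB1* (0.033, 0.050 and 0.0078 with edgeR, DESeq2 and clone means).

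Leaving out a library or a clone gave 0 to 2 DEGs and 0 to 2 genes past the adjusted p in HT29, 0 to 1 and 1 to 4 in HCT116 (4 without clone KO 47), 1 to 4 and 1 to 3 KO effects that differed between HT29 and HCT116 and between HCT116 and SW480, 1 to 3 DEGs between the HT29 KO clones and 0 to 1 between the SW480 WT clones. The KO difference then ranged over both signs in HT29 for *EPHB3* (-1.27 to 1.12), *EPHB4* (-0.069 to 0.13), *EPHB6* (-3.04 to 0.73), *EFNB1* (-0.38 to 0.40) and *EFNB2* (-0.52 to 0.29), in HCT116 for *EPHB4* (-0.17 to 0.10), *EPHB6* (-0.45 to 0.27), *EPHA1* (-0.53 to 0.34), *EPHA4* (-0.36 to 0.22), *EFNB1* (-0.015 to 0.076) and *EFNB2* (-0.032 to 0.49), and in SW480 for *EPHA4* (-0.15 to 0.24). Between WT lines it did so for *EPHB3* (HT29 minus HCT116, -1.40 without clone WT 11 to 0.99 without WT 40, each past the adjusted p), *EFNB1* and *EFNA1* (HT29 minus SW480, -0.26 to 0.034 and -0.24 to 0.042) and *EPHB4* (HCT116 minus SW480, -0.21 to 0.0047). Differences of KO effects did so for HT29 minus HCT116 in *EPHB3* (-1.54 to 0.85), *EPHB4* (-0.072 to 0.20), *EPHB6* (-2.96 to 0.82), *EFNB1* (-0.41 to 0.37) and *EFNB2* (-0.75 to 0.062), for HT29 minus SW480 in *EPHB3* (-2.13 to 0.26) and for HCT116 minus SW480 in *EPHA4* (-0.40 to 0.18). None of these differences was a DEG with all libraries in limma. The causes were not tested. With 2 clones per group precision is limited, and the parts of clone, round and depth in it were not tested.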
